A study of Rattus norvegicus with 56 samples.

Results

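All rats with a traumatic brain injury (TBI) were set against all sham-operated rats, whatever the time since surgery, to look for effects on hippocampal miRNAs that ran in 1 direction through the first year. The members are the small RNA libraries with a total of 100000 counts or more, which are 55 of the 56 libraries of the series, 27 from TBI rats and 28 from sham rats. The library left out, TBI 2 m replicate 1, held 69628 counts. The rats had received either fluid percussion injury, in which a pulse of fluid strikes the exposed dura, or sham surgery, and the hippocampus was taken after 24 h, 2 w, 1 m, 2 m, 3 m, 6 m or 1 y. Each interval holds 4 TBI and 4 sham rats, except 2 m with 3 TBI rats. Strain, age, sex, the side of the hippocampus and the sequencing run are not given in the sources used here. Each rat was measured once, so a lasting effect means an effect seen in different rats at successive intervals, and time after surgery cannot be told apart from age. The sham rats shared the surgery without the injury, and there was no unoperated group.

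A miRNA is a short RNA that guides the silencing complex to messenger RNAs, mainly by pairing of its bases 2 to 8, the seed. Several miRNAs are made in large amounts by activated microglia, astrocytes and infiltrating blood cells. In inflamed brain miR-155 is known to strengthen Toll-like receptor signalling, miR-146a to dampen it by targeting the adaptors Irak1 and Traf6, and miR-21 to rise in reactive astrocytes and microglia. miR-142 comes from a gene that is active in blood-forming cells and microglia. The miR-17-92 cluster and the miR-23a, miR-27a and miR-24-2 cluster are each cut from 1 primary transcript and are known for roles in cell growth.

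In the pooled test 10 miRNAs were higher after TBI and 0 were lower, out of 240 tested. The 10 were miR-155-5p, miR-142-5p, miR-146a-5p, miR-27a-5p, miR-298-5p, miR-21-5p, miR-92a-1-5p, miR-20a-5p, miR-24-2-5p and miR-17-5p. Their mature sequences, from RefSeq (GRCr8), are shown with the seed in capitals, because the seed decides which of the 10 could share targets.
miR-155-5p: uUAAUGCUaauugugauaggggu
miR-142-5p: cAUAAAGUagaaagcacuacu
miR-146a-5p: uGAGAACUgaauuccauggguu
miR-27a-5p: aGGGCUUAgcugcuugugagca
miR-298-5p: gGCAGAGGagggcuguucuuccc
miR-21-5p: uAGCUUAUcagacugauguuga
miR-92a-1-5p: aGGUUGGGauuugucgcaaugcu
miR-20a-5p: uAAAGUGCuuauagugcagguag
miR-24-2-5p: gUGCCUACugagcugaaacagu
miR-17-5p: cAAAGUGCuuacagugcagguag

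The 10 miRNAs carry 9 different seeds. Only miR-17-5p and miR-20a-5p share one, AAAGUGC, and they differ at 2 of 23 bases, C1U and C12U, counted from the 5′ end with the base of miR-17-5p first. Other tested miRNAs with the seeds of the 10 are shown next, because they were not called in the pooled test.
miR-20b-5p: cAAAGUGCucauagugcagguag
miR-93-5p: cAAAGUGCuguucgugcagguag
miR-106b-5p: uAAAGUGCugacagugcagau
miR-146b-5p: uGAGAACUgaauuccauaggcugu
miR-24-1-5p: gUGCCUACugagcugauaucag

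In the GRCr8 annotation, Mir155 lies within its host transcript Mir155hg, Mir142 within the span of Tspoap1, Mir21 beside Vmp1, and Mir298 beside Mir296. Mir17, Mir20a and Mir92a1 neighbour each other, as do Mir27a and Mir24-2. The mature miR-17-5p sequence is listed at 2 loci, Mir17 and Mir106a, whose reads cannot be told apart. For miR-27a, miR-24-2 and miR-92a-1 the 5p arm is the less abundant product of the hairpin in most tissues. The 3p arms of these hairpins were not analysed here. The table lists 367 miRNAs, 309 of them named as 5p arms and 5 as 3p arms. The marker lists and families below therefore rest mostly on 5p arms, also where the 3p arm may be the main product.

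The 55 libraries held 2083604 to 12468979 counts (median 5333993). TBI libraries had a median of 5333993 counts and sham libraries of 5412190. The table listed 34 miRNAs with no read in any library. Neuron-enriched miRNAs (10 listed) summed to 151328 to 357315 CPM in TBI libraries and 170573 to 314509 in sham libraries, which marks brain tissue but not the hippocampus in particular. Most of this sum was miR-9a-5p, at a mean of 195501 CPM, so it says little about the other members. CPM, the usual unit of count relative to library size, was computed after TMM scaling, a correction for differences in composition. A set of 3 sham libraries stood apart in miR-204-5p, the leading miRNA of choroid plexus epithelium, with 20344 CPM in sham 3 m replicate 3, 17742 in sham 3 m replicate 4 and 19131 in sham 1 y replicate 3. The next highest of the 55 libraries held 4991 CPM. Results that rest on these 3 libraries are given with and without them.

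For each miRNA, edgeR's quasi-likelihood test compared TBI with sham with the interval as a blocking factor and no interaction, and p-values were adjusted by Benjamini-Hochberg over the 240 miRNAs. The 10 miRNAs higher in TBI are 4.17% of those tested, and the 0 lower are 0%. At an unadjusted p under 0.05, 20 miRNAs were higher (8.33%) and 16 lower (6.67%). In DESeq2 both tests run, Wald and likelihood ratio, called the same 10 higher and 0 lower. limma-voom did not call miR-92a-1-5p, miR-20a-5p and miR-17-5p, and scaling by total count did not call miR-20a-5p, miR-24-2-5p and miR-17-5p. The effects were small outside miR-155-5p and miR-146a-5p, since the other 8 of the 10 had a fold change under 1.5. Whether more RNA per cell or more cells of a type lay behind a higher level cannot be told apart in whole hippocampus.

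**Figure D1:**
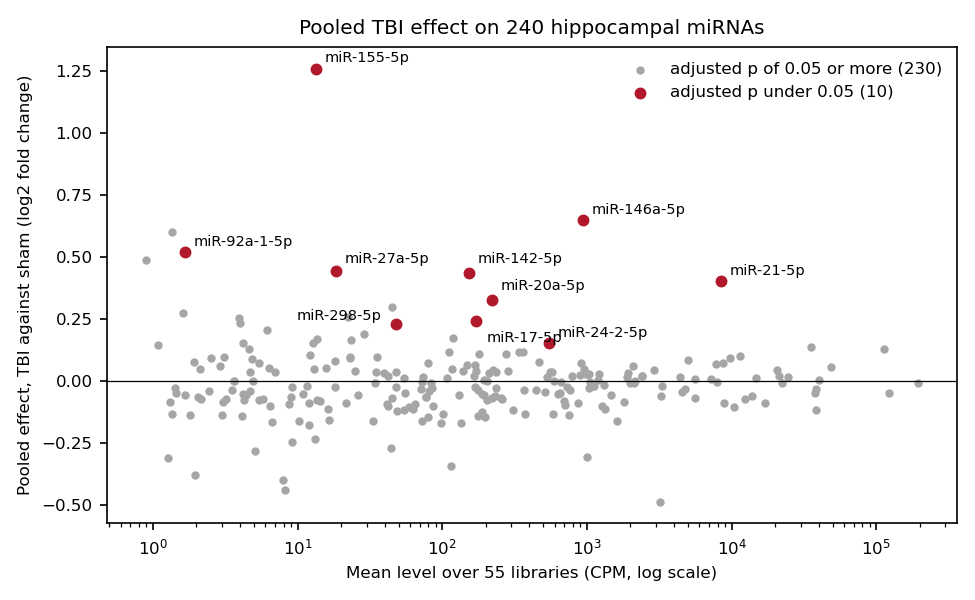
Pooled log2 fold change, TBI against sham, of each of the 240 miRNAs tested (y axis) against its mean level over 55 libraries in CPM (x axis, log scale). The 10 miRNAs with an adjusted p under 0.05 (red, named) all lie above 0 and span mean levels from 1.67 to 8457 CPM.

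The lowest adjusted p belonged to miR-155-5p. It ranged from 3.33 to 71.4 CPM in TBI rats (median 13.4) and from 3.28 to 14.1 CPM in sham rats (median 6.42). The ranges overlapped at the low end, while 23 of 27 TBI rats lay above the sham median of their own interval and 19 above its highest sham rat. The pooled fold change was 2.40 (95% confidence interval 1.89 to 3.03), or 1.26 ± 0.17 (SE) on the log2 scale, with an adjusted p of 2.24e-07 in edgeR's quasi-likelihood test. The size of this effect depended on the fit. On the log2 scale it was 0.99 in DESeq2, 0.98 in edgeR's likelihood ratio test and 1.01 in edgeR's older quasi-likelihood fit. It was 1.19 in limma-voom and 1.29 with scaling by total count. The unweighted mean of the interval effects was 0.97, so 1.26 is not the average effect per interval.

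miR-142-5p, of leukocytes and microglia, ranged from 122 to 288 CPM after TBI (median 170.2) and from 90.5 to 153 CPM after sham surgery (median 131). Again 23 of 27 TBI rats exceeded the sham median of their interval, and 20 exceeded all its sham rats. Its pooled fold change of 1.35 (1.24 to 1.48) had the second lowest adjusted p, 6.80e-07 in edgeR's test.

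miR-146a-5p lay at 683 to 2201 CPM in TBI rats (median 933) and 485 to 1387 CPM in sham rats (median 704). Of the 27 TBI rats, 24 were above the sham median of their interval and 21 above its highest sham rat. The fold change was 1.57 (1.36 to 1.81), with an adjusted p of 3.31e-06 in edgeR's test. Its seed mate miR-146b-5p, at a mean of 4575 CPM, had a log2 fold change of −0.04 ± 0.05 (SE) and did not pass (adjusted p = 0.808, edgeR).

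miR-21-5p was by far the most abundant of the 10. It spanned 3837 to 21150 CPM after TBI (median 8771) and 4645 to 10314 CPM after sham surgery (median 7247). The lowest library of all was thus a TBI library, although 22 of 27 TBI rats exceeded the sham median of their interval. The fold change of 1.32 (1.15 to 1.52) had an adjusted p of 0.00924 in edgeR's test.

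A pair of the 10 comes from the miR-23a cluster. miR-27a-5p ranged from 12.2 to 43.0 CPM in TBI rats (median 20.1) and from 9.75 to 22.7 CPM in sham rats (median 15.5). It was above the sham median of the interval in 24 of 27 TBI rats, and its fold change was 1.36 (1.19 to 1.55), with an adjusted p of 0.00100 in edgeR's test. The highest value belonged to TBI 1 m replicate 2, and without that rat the adjusted p was still under 0.05.

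miR-24-2-5p ranged from 421 to 814 CPM (median 557) against 393 to 616 CPM (median 515), with 17 of 27 TBI rats above the sham median. It had the smallest of the 10 effects, 1.11-fold (1.05 to 1.18, adjusted p = 0.0235 in edgeR's test). The call was lost without TBI 2 m replicate 3 or TBI 2 m replicate 4, with adjusted p-values of up to 0.0814. It was also lost without 24 h, 2 w, 1 m, 2 m or 6 m.

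The miR-17-92 cluster and its paralogues gave 3 of the 10, of which miR-17-5p can come from either Mir17 or Mir106a of the paralogous cluster. miR-20a-5p spanned 102 to 413 CPM after TBI (median 219) and 139 to 292 CPM after sham surgery (median 189), a log2 fold change of 0.33 (0.14 to 0.51, adjusted p = 0.0235 in edgeR's test). Its call was lost without TBI 2 m replicate 4 (adjusted p = 0.0559).

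miR-17-5p spanned 119 to 288 CPM (median 179) against 108 to 215 CPM (median 147), a fold change of 1.18 (1.07 to 1.31, adjusted p = 0.0353 in edgeR's test). This last call was the least firm, since it was lost in 18 of the 55 fits that each left out 1 library.

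miR-92a-1-5p was near the limit of detection, at 0.208 to 4.16 CPM after TBI (median 1.87) and 0.450 to 3.49 CPM after sham surgery (median 1.38). Its fold change was 1.43 (1.18 to 1.74, adjusted p = 0.0134 in edgeR's test), and 19 of 27 TBI rats lay above the sham median of their interval. The call was lost without 24 h, 2 w or 1 m.

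The remaining called miRNA, miR-298-5p, lies next to miR-296 in the imprinted Gnas region. It ranged from 30.4 to 83.3 CPM in TBI rats (median 49.5) and from 31.9 to 67.6 CPM in sham rats (median 41.7). The ranges overlapped over all intervals, while every TBI rat lay above every sham rat at 24 h and at 1 m. The fold change within intervals was 1.17 (1.09 to 1.27, adjusted p = 0.00573 in edgeR's test). In all, 22 of 27 TBI rats lay above the sham median of their interval.

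**Figure D2:**
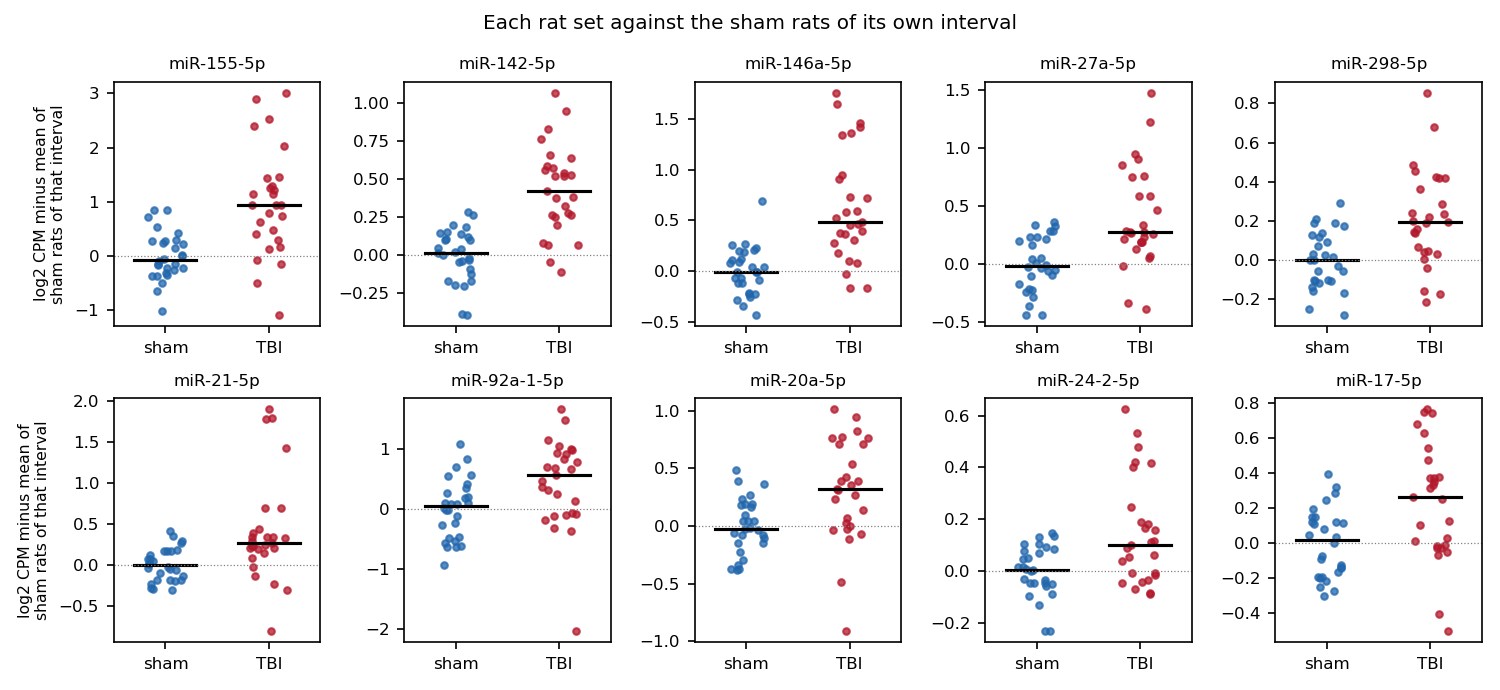
Level of each of the 10 miRNAs in every rat as log2 CPM minus the mean log2 CPM of the sham rats of the same interval (y axis), for 28 sham rats (blue) and 27 TBI rats (red), with the median as a black bar. The TBI medians run from 0.10 for miR-24-2-5p to 0.94 for miR-155-5p, and some TBI rats lie below 0 for each miRNA.

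Set against the sham rats of their own interval, the TBI rats shifted as a body in the case of miR-142-5p, less so for miR-21-5p. Of the rats measured for miR-142-5p, 25 of 27 TBI rats lay above the sham mean of their interval on the log2 scale, with a median of 0.42, while 15 of 28 sham rats did. For miR-21-5p, 22 of 27 did, with a median of 0.27, but the highest reached 1.90 and the lowest −0.81.

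The pooled effect was not the same at every interval. An effect above 0 at all 7 intervals was found for 4 of the 10, miR-298-5p, miR-21-5p, miR-92a-1-5p and miR-20a-5p, against 8 of all 240 miRNAs (3.33%). The others of those 8 were miR-190b-5p, miR-18a-5p, let-7i-5p and miR-145-5p, none with an adjusted p under 0.05. Some of these signs rest on values near 0. The log2 effect was 0.0004 ± 0.25 for miR-20a-5p at 2 m and 0.01 ± 0.15 for miR-298-5p at 1 y (SE). The lowest interval effect was 0.0015 for miR-190b-5p and 0.0041 for miR-18a-5p. The choice of the 10 used the same libraries, so these counts are a description. Effects below 0 at all 7 intervals were found for 3 miRNAs, miR-300-5p, miR-154-5p and miR-3068-5p, with pooled log2 fold changes of −0.23, −0.14 and −0.10 that did not pass. Their interval effects nearest to 0 were −0.0033, −0.01 and −0.02.

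Complete separation, with every TBI rat above every sham rat, occurred in 18 of the 70 pairs of a called miRNA and an interval, against 54 of all 1680 pairs (3.21%). At 24 h 6 of the 10 miRNAs separated in this way. At 2 w, 1 m and 2 m there were 3 each, then 1 (3 m), 2 (6 m) and 0 (1 y). Separation is easier to reach at 2 m, with 3 TBI rats, than at the intervals with 4. The share over all miRNAs was taken for all intervals together, not for each. As the 10 were chosen on these libraries, the counts per interval are a description only. miR-155-5p separated at 5 intervals, miR-146a-5p at 4 and miR-142-5p at 3. The median log2 effect of the 10 lay between 0.50 and 0.54 over the first 3 intervals and between 0.22 and 0.34 from 2 m to 6 m, and was 0.00057 in the last. At 1 y only 5 of the 10 effects were above 0.

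**Figure D3:**
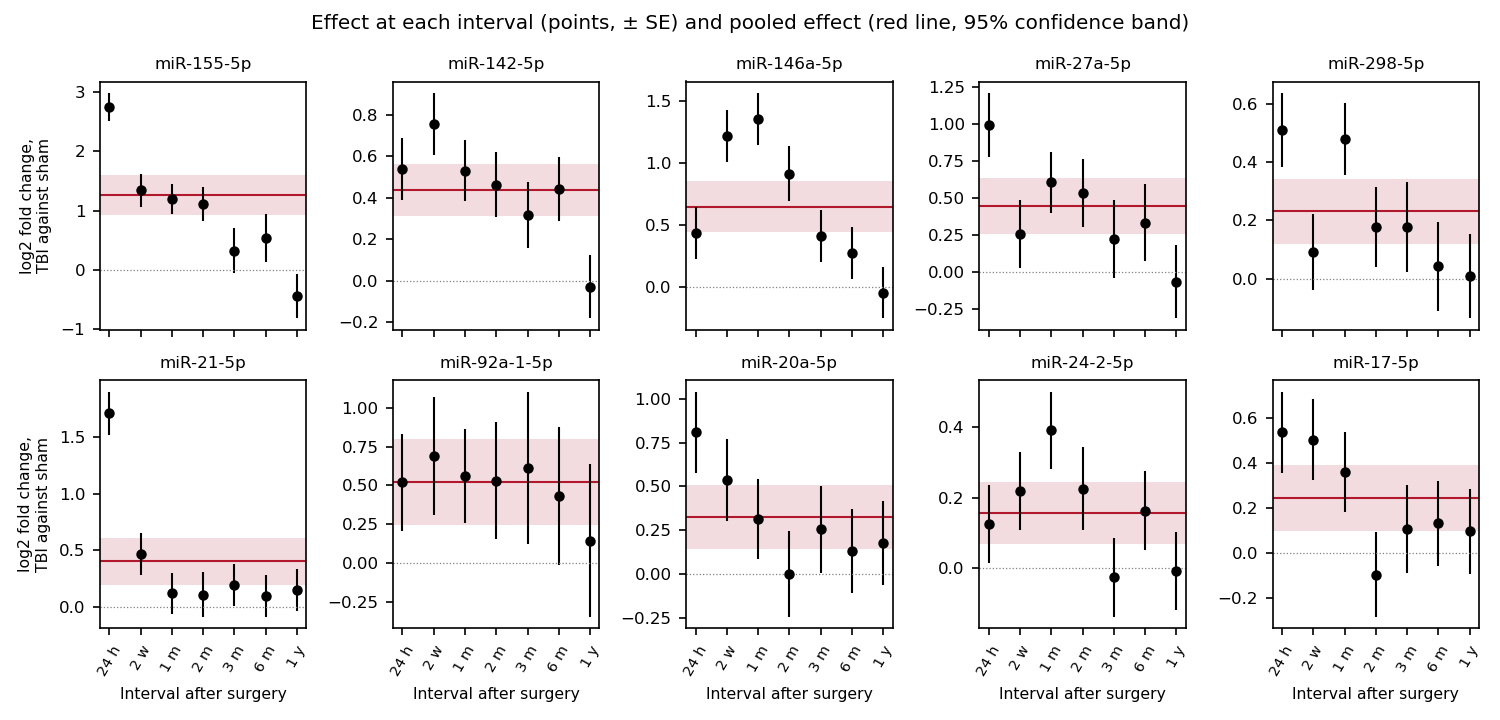
log2 fold change, TBI against sham, at each of the 7 intervals (x axis) for the 10 miRNAs, as points with their SE, from a fit with 1 TBI effect per interval. The red line and band give the pooled effect and its 95% confidence interval, and miR-155-5p and miR-21-5p lie far above their pooled lines at 24 h.

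Whether the TBI effect differed between intervals was tested by edgeR's quasi-likelihood test with 6 interaction terms. It did for 6 of 240 miRNAs (2.5%), of which 3 were among the 10, namely miR-155-5p (adjusted p = 1.99e-05), miR-21-5p (6.76e-05) and miR-146a-5p (0.00574). miR-155-5p had its largest effect at 24 h, with 58.7 ± 11.7 CPM in TBI rats against 8.94 ± 1.48 CPM in sham rats (SD, n = 4 each). The groups overlapped at 3 m, with 7.07 to 13.4 CPM in TBI rats and 3.87 to 14.1 CPM in sham rats. At 6 m it stood at 8.19 ± 1.91 against 5.30 ± 1.36 CPM, where the lowest TBI rat (6.28 CPM) was just above the highest sham rat (6.21 CPM), and at 1 y at 5.73 ± 2.01 against 7.53 ± 3.48 CPM, where they overlapped.

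miR-21-5p had its largest effect at 24 h, at 18814 ± 2566 CPM against 5754 ± 1290 CPM (SD, n = 4 each). From 1 m on, its effects lay between 0.10 and 0.19 on the log2 scale and the groups overlapped at each of these intervals. miR-146a-5p followed another course, with 803 to 1246 CPM against 613 to 877 CPM at 24 h, where the groups overlapped, and the largest effect at 1 m, 1813 ± 350.1 against 709 ± 104 CPM. It was still above all sham rats at 3 m, at 868 ± 90.5 against 652 ± 50.7 CPM. The 1 y levels of 874 ± 141 and 900.3 ± 337 CPM overlapped.

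miR-142-5p gave no call in the same test (adjusted p = 0.281, edgeR). Its levels were 231 ± 55.8 CPM after TBI against 138 ± 13.7 CPM at 2 w, 179 ± 17.6 against 132 ± 9.65 CPM at 6 m, and 131 ± 7.86 against 133 ± 22.0 CPM at 1 y (SD, n = 4 each). The miRNA was thus above its sham mean from 24 h to 6 m and not at 1 y, although a p that misses the threshold does not show that the intervals were alike.

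The other 3 miRNAs whose effect differed between intervals had pooled effects near 0. miR-3065-5p, encoded antisense to the oligodendrocyte miRNA miR-338, had log2 effects from −1.63 at 6 m (0.910 ± 1.03 against 2.43 ± 0.23 CPM) to 0.97 at 2 m (2.69 ± 1.48 against 1.47 ± 0.58 CPM), at levels of a few CPM (adjusted p = 0.00864, edgeR). miR-425-5p stood above all sham rats at 1 m (642 ± 62.2 against 538 ± 20.7 CPM) and 2 m (722 ± 52.5 against 590.2 ± 50.8 CPM, 3 TBI and 4 sham rats), and its log2 effects at the other intervals lay between −0.14 and −0.02 (adjusted p = 0.0309, edgeR). miR-139-5p stood above all sham rats at 1 m (10337 ± 1139 against 7672 ± 320 CPM) and at 24 h had a log2 effect of −0.23 ± 0.10 (SE; adjusted p = 0.0354, edgeR). The calls of miR-425-5p and miR-139-5p were lost in 11 and 17 of the 55 fits without 1 library. They were also lost with total count scaling (adjusted p = 0.365 and 0.129, edgeR), with no filter (0.143 and 0.0655), with at least 10 counts in every library, with robust dispersion, with all 56 libraries, without the 3 sham libraries rich in miR-204-5p, and without any 1 interval other than 2 w. The call of miR-3065-5p was made in all 55 fits without 1 library, but was lost without 24 h and without 1 m. Its lowest TBI library at 6 m held 0 CPM.

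The mean effect of the first 3 intervals was then set against that of the last 4. It was larger early for 3 of 240 miRNAs (1.3%), the same 3. On the log2 scale the early effect of miR-155-5p exceeded the late one by 1.39 ± 0.24, that of miR-21-5p by 0.63 ± 0.14 and that of miR-146a-5p by 0.61 ± 0.16 (SE, adjusted p = 0.000162, 0.00763 and 0.0284 in edgeR's test). Without 24 h only miR-146a-5p was called, so the calls of miR-155-5p and miR-21-5p rest on that interval. The call of miR-146a-5p was made in 45 of the 55 fits without 1 library, and was lost in limma-voom and without 2 w, 1 m, 3 m, 6 m or 1 y. The difference was 0.31 ± 0.12 for miR-142-5p (adjusted p = 0.485) and 0.41 ± 0.14 for miR-17-5p (adjusted p = 0.339), neither passing in edgeR's test.

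The 2 m, 3 m, 6 m and 1 y libraries alone, 15 TBI and 16 sham, gave 0 miRNAs with an adjusted p under 0.05 in either direction (0% of 233 tested by edgeR). At an unadjusted p under 0.05 there were 14 (6.01%), 6 higher and 8 lower. The Wald test of DESeq2 called 1, miR-142-5p (adjusted p = 0.0282). That miRNA also had the lowest p in edgeR's test, with a log2 fold change of 0.27 ± 0.07 (SE) and an adjusted p of 0.186. On the log2 scale miR-155-5p had a late effect of 0.45 ± 0.18, miR-146a-5p of 0.35 ± 0.11 and miR-27a-5p of 0.24 ± 0.11 (SE). All 9 of the 10 miRNAs that could be tested had a late effect above 0 and below their pooled effect. Of all 233 miRNAs tested there, 96 had a late effect above 0. For 4 of the 9 the 95% confidence interval lay above 0. The 10 were chosen on a pooled fit that holds these late libraries, so these counts are a description only. miR-92a-1-5p was too low to test there.

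Late effects larger than 0.32 on the log2 scale, up or down, lay outside the 95% confidence interval for 5 of these 9, miR-298-5p, miR-21-5p, miR-20a-5p, miR-24-2-5p and miR-17-5p. For miR-155-5p the interval ran from 0.07 to 0.82 on the log2 scale. Leaving 1 y out of the late libraries gave 3 calls, miR-142-5p at 0.40, miR-146a-5p at 0.51 and miR-155-5p at 0.73 on the log2 scale (adjusted p = 0.00377, 0.00377 and 0.0328, edgeR). Leaving out sham 1 y replicate 4, the sham library with the most miR-146a-5p, gave calls of miR-146a-5p (0.43, adjusted p = 0.00797) and miR-142-5p (0.30, adjusted p = 0.0196). Taking out the highest sham value raises the miR-146a-5p effect in any case.

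**Figure D4:**
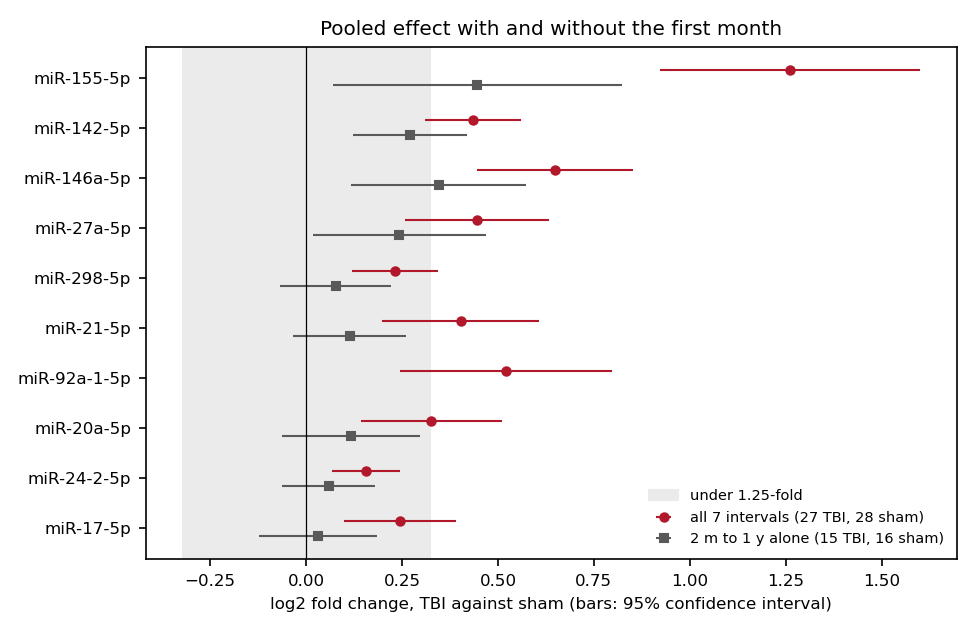
log2 fold change, TBI against sham, with its 95% confidence interval (x axis) for the 10 miRNAs, from all 55 libraries (red circles) and from the 31 libraries of 2 m to 1 y (grey squares). Each of the 9 late estimates lies nearer to 0 than the pooled estimate, and the shaded band marks effects within 0.32 of 0.

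The sham libraries rich in miR-204-5p touched the late miR-155-5p result. They held 14.1, 11.2 and 12.7 CPM of miR-155-5p, the 3 highest values of the 16 late sham libraries. Without these 3 libraries the late effect of miR-155-5p was 0.75 on the log2 scale (adjusted p = 0.00588, edgeR), against 0.45 with them, and miR-142-5p passed as well (0.32, adjusted p = 0.0421). Leaving out the 3 highest late sham values raises the miR-155-5p effect in any case. Its adjusted p without them is therefore no test of a late effect. In the pooled test the same step left 9 of the 10 called, while miR-17-5p had an adjusted p of 0.0570. It also brought 1 call of a lower miRNA, miR-138-5p (−0.20, adjusted p = 0.0200, edgeR). What part choroid tissue had in these levels was not tested.

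The calls also depended on which intervals were pooled. Without 24 h, 3 miRNAs passed, miR-155-5p with a log2 fold change of 0.82 (adjusted p = 2.03e-04, edgeR), miR-142-5p with 0.41 (3.44e-05) and miR-146a-5p with 0.68 (3.44e-05). The effect of miR-21-5p was then 0.19 (adjusted p = 0.247). Without 2 w 5 passed, miR-155-5p, miR-142-5p, miR-146a-5p, miR-27a-5p and miR-298-5p, and without 1 m 6 passed. miR-155-5p, miR-142-5p and miR-146a-5p passed in each of the 7 fits without 1 interval, and in all 55 fits without 1 library.

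**Figure D5:**
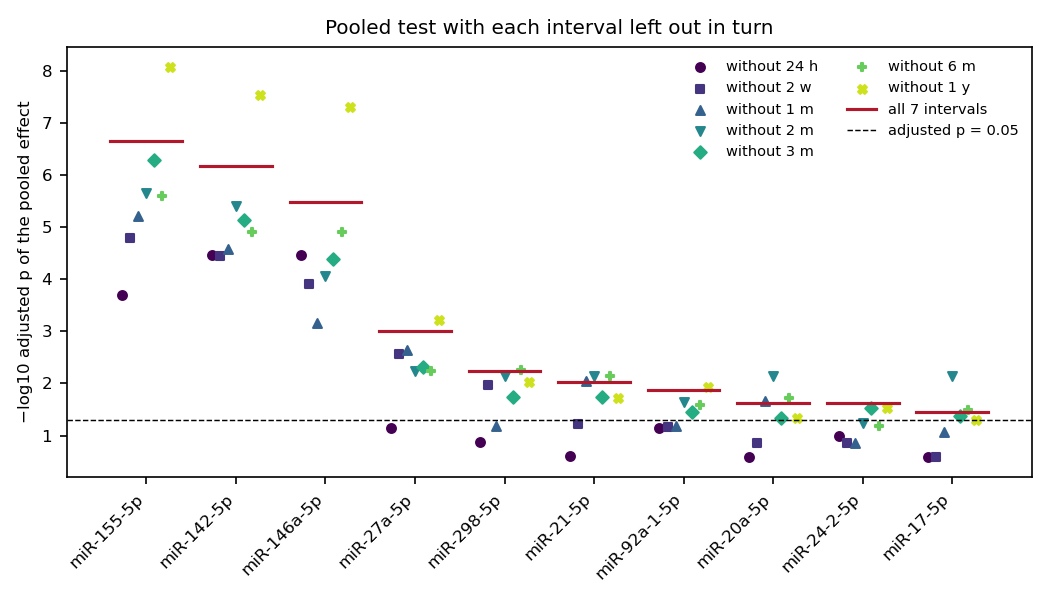
−log10 of the adjusted p of the pooled effect (y axis) for the 10 miRNAs, with all 7 intervals (red bar) and with each interval left out in turn (symbols). Of the 10, miR-155-5p, miR-142-5p and miR-146a-5p stay above the dashed line at adjusted p = 0.05 whichever interval is left out.

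Of the 4 miRNAs that the study names for rat hippocampus, miR-155-5p, miR-142-5p and miR-21-5p are among the 10. They were chosen on these samples, so their calls are not independent evidence. miR-223-5p, of neutrophils and other myeloid cells, had 307 counts over the 55 libraries and was too low to test. At 24 h its counts were 26, 61, 1 and 35 in the TBI rats and 0, 3, 1 and 3 in the sham rats. From 2 w to 1 y the TBI libraries held 0 to 11 counts and the sham libraries 0 to 10, and these overlapped. Without the filter on low counts miR-223-5p passed (adjusted p = 2.21e-04, edgeR), and with the 24 h libraries left out as well it did not.

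The study also names miRNAs for chronic human TBI, from serum taken years after injury. It reports relatively poor concordance between its rat and human miRNA data. Species, tissue and time range all differ, so the hippocampal values below cannot test the serum finding. The 4 rat counterparts gave 0 calls. Their pooled log2 fold changes were −0.17 ± 0.19 for miR-451-5p of red blood cells, 0.05 ± 0.05 for miR-30d-5p, 0.08 ± 0.11 for miR-145-5p of smooth muscle and −0.49 ± 0.22 for miR-204-5p (SE, adjusted p = 0.282 to 0.844, edgeR). Without the 3 sham libraries rich in miR-204-5p, the value for miR-204-5p was −0.02 ± 0.13 (SE). These libraries were picked for that miRNA and are all sham, so this shift follows from the choice.

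Inflammation-induced miRNAs gave 3 calls of 6 tested, miR-155-5p, miR-146a-5p and miR-21-5p, all higher, against 10 of all 240 (4.17%). The median log2 fold change of the list was 0.23, against −0.02 over all 240 miRNAs. miR-132-5p (0.06 ± 0.06) did not pass, nor did miR-187-5p, known from anti-inflammatory signalling, at −0.25 ± 0.12 (SE, unadjusted p = 0.0426, adjusted p = 0.315, edgeR).

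Among miRNAs of leukocytes and microglia 1 of 3 tested passed, miR-142-5p, against 4.17% of all miRNAs tested. miR-150-5p of lymphocytes had a log2 fold change of 0.03 ± 0.06 and miR-342-5p −0.02 ± 0.10 (SE). The summed level of the 5 listed members was 849 to 1561 CPM in TBI libraries and 816 to 2407 CPM in sham libraries, and these ranges overlapped. Most of this sum was miR-150-5p, at a mean of 988 CPM against 154 CPM for miR-142-5p, so it says little about the other members.

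The miR-17-92 cluster and its paralogues had 3 of 8 tested miRNAs called higher, against 4.17% of all 240. All 8 log2 fold changes were above 0, against 109 of all 240, with a median of 0.25 (7 of 8 when libraries were scaled by total count, where miR-106b-5p was below 0). In the late libraries alone miR-20b-5p (−0.07), miR-106b-5p (−0.07) and miR-25-5p (−0.03) were below 0. There miR-17-5p, miR-18a-5p, miR-20a-5p and miR-93-5p lay between 0.03 and 0.12. Members cut from 1 transcript are not independent of each other. Among the 5 that did not pass were miR-18a-5p at 0.25 ± 0.10, miR-20b-5p at 0.28 ± 0.15 and miR-93-5p at 0.12 ± 0.06 (SE, adjusted p = 0.211, 0.371 and 0.315, edgeR). miR-106b-5p, which has the same seed as miR-17-5p, stood at 0.01 ± 0.07. The values within the seed family thus ran from 0.01 to 0.33.

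Of the miR-23, miR-27 and miR-24 group, 2 of 5 tested were higher, against 4.17% of all 240. They were miR-27a-5p and miR-24-2-5p, both of the miR-23a cluster. Their relatives of the miR-23b cluster had log2 fold changes of 0.10 ± 0.06 for miR-27b-5p, 0.02 ± 0.06 for miR-24-1-5p and −0.06 ± 0.09 for miR-23b-5p (SE), and none passed. miR-23a-5p, with 74 counts in all, was not tested.

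Markers of other cell types gave 0 calls. The log2 fold changes of 3 red blood cell miRNAs lay between −0.18 and −0.05, those of 3 vessel wall miRNAs between −0.08 and 0.08, and those of 4 oligodendrocyte miRNAs between −0.13 and 0.03. The summed red blood cell miRNAs were 181 to 568 CPM in TBI and 207 to 677 CPM in sham libraries, and these ranges overlapped. For vessel wall miRNAs the sums were 677 to 2070.1 and 858 to 1931 CPM, and for oligodendrocyte miRNAs 1563 to 3079 and 1478 to 3307 CPM.

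The 7 tested miRNAs of choroid plexus and ependyma all had log2 fold changes below 0, with a median of −0.31, and 2 had an unadjusted p under 0.05. Over all 240 miRNAs 131 were below 0 and 16 (6.67%) were lower at an unadjusted p under 0.05. Their summed level reached 24866 CPM in sham libraries and 5662 CPM in TBI libraries, with medians of 3280 and 3017 CPM. Without the 3 sham libraries rich in miR-204-5p, the median was −0.02, 5 of 7 were below 0 and 0 had an unadjusted p under 0.05 in the lower direction. miR-211-5p, the close relative of miR-204, then stood at 0.37 (unadjusted p = 0.00959, edgeR). The 3 libraries were picked for high miR-204-5p and are all sham. Higher choroid values without them therefore follow at least in part from the choice, and the p for miR-211-5p is no test.

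Neuron-enriched miRNAs gave 0 calls of 9 tested, with a median of −0.02. miR-138-5p, which acts at dendritic spines, stood at −0.16 ± 0.06 and miR-218a-5p at −0.12 ± 0.05, while miR-128-1-5p stood at 0.15 ± 0.08 (SE, adjusted p = 0.111, 0.315 and 0.315, edgeR). miR-138-5p was called lower without the 3 sham libraries rich in miR-204-5p (adjusted p = 0.0200) and without 3 m (0.0460). Activity-regulated miRNAs gave 0 of 5, with miR-212-5p at 0.03 ± 0.07 and miR-134-5p at 0.04 ± 0.05.

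The imprinted Dlk1-Dio3 cluster, expressed from the maternal allele and abundant in neurons, gave 0 calls of 38 tested. Of these 29 had a log2 fold change below 0, with a median of −0.06, against 131 of all 240. The 4 with an unadjusted p under 0.05, to be read against 6.67% of all 240 in that direction, were miR-376a-5p at −0.17 ± 0.06, miR-300-5p at −0.23 ± 0.09, miR-154-5p at −0.14 ± 0.06 and miR-376b-5p at −0.13 ± 0.06 (SE, adjusted p = 0.111 to 0.296, edgeR). Neighbouring members of 1 transcript are not independent of each other.

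The remaining families gave 0 calls as well. These were let-7 (9 tested, let-7i-5p at 0.14 ± 0.06), miR-29 (3 tested, miR-29b-5p at −0.16 ± 0.07), miR-30 (5 tested, −0.10 to 0.05), miR-181 (4 tested, −0.02 to 0.07), miR-34 and miR-449 (4 tested, −0.34 to 0.00201), and the epithelial and sensory miR-200 and miR-183 group (3 tested, −0.12 to −0.02). Without the 3 sham libraries rich in miR-204-5p, miR-34b-5p went from −0.34 to −0.00786, miR-34c-5p from −0.31 to 0.00442 and miR-34a-5p from 0.00201 to −0.00903. miR-34b-5p and miR-34c-5p are also on the choroid list, so their shifts follow at least in part from the choice of libraries.

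For most miRNAs the pooled design bounded the effect closely. The median SE was 0.07 on the log2 scale, and the 95% confidence interval lay within 0.32 of 0 for 172 of 240 miRNAs (71.7%). miR-24-2-5p was among these 172 and was called all the same, so an effect can be both called and small. The bound does not cover the effect at a single interval. For example, miR-30d-5p had a pooled log2 fold change of 0.05 ± 0.05 but 0.46 ± 0.13 at 1 m (SE).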

How the data were processed

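Small RNA libraries of rat hippocampus were sequenced single end, and the authors trimmed reads and counted them per mature miRNA with miRDeep2 against miRBase. The deposited table holds these raw counts. How reads matching several miRNAs were divided, and the genome build, are not given in the sources used here. Demultiplexing by bcl2fastq 2.20.0.422 is named in the submitters' processing notes.

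Groups came from the labels. The members, miRNA lists and tests were chosen with earlier results of these data known. Libraries under 100000 counts were left out, and filterByExpr kept 240 of 367 miRNAs. edgeR 4.0.16 (R 4.3.3) fitted treatment and interval by quasi-likelihood on TMM-scaled counts. Further fits used 1 TBI effect per interval, or the last 4 intervals alone. P-values were adjusted by Benjamini-Hochberg (threshold 0.05) and the SE was taken from the F statistic. Confidence intervals are 95%. The text names miRNAs passing in the pooled test, those whose effect differed between intervals, those with 1 sign in all 7 intervals, and members of the lists named in the report. The recorded rule set a limit on how many higher miRNAs would be named, and its number was garbled in writing. All 10 that passed were therefore named. In the lists, 4 misspelled names were restored after a first fit.

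Alternatives were DESeq2 1.42.0 (adjusted p-values it gave as NA stayed NA), limma-voom (limma 3.58.1), 1 surrogate variable (sva 3.50.0), other scalings and filters, and leaving out intervals or libraries. Each replicate pair differed by more than sampling noise (81 pairs, chi-square of at least 43.0 times its degrees of freedom). The statistics were tested on simulated data. A count of 0 allows up to 3 counts, and this limit covers counting error only. Sequences came from RefSeq (GRCr8), where 10 of 10 called and 218 of 240 tested miRNAs matched by name. The counts name no build, so no coordinates are given.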

Additional observations from a re-analysis of the deposited data

Results flagged for a closer look

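In 9 of 130 combinations of a called miRNA and a group of 4 rats, 1 rat stood apart from the other 3 by Dixon's criterion. Chance gives this in about 1 in 20. The combinations reuse the same rats, so they are not independent of each other. The miR-155-5p values concerned were sham 1 m replicate 2 at 12.8 CPM and sham 1 y replicate 3 at 12.7 CPM. The latter is also one of the sham libraries rich in miR-204-5p. For miR-24-2-5p they were sham 2 w replicate 2 at 582 CPM, TBI 2 w replicate 2 at 708 CPM and sham 1 y replicate 2 at 491 CPM. The rest were miR-146a-5p in TBI 6 m replicate 1 at 683 CPM, miR-27a-5p in TBI 1 m replicate 2 at 43.0 CPM, miR-21-5p in TBI 1 y replicate 4 at 7330 CPM and miR-20a-5p in TBI 24 h replicate 2 at 365 CPM.

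The TBI effect differed between the 7 intervals for 6 miRNAs by quasi-likelihood in edgeR. These were miR-155-5p (adjusted p = 1.99e-05), miR-21-5p (6.76e-05), miR-146a-5p (0.00574), miR-3065-5p (0.00864), miR-425-5p (0.0309) and miR-139-5p (0.0354). Between the first 3 and the last 4 intervals it differed for miR-155-5p (adjusted p = 0.000162), miR-21-5p (0.00763) and miR-146a-5p (0.0284) in the same fit by edgeR.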

How the results depend on the processing

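Of the 10 higher miRNAs, the same 10 passed with DESeq2 size factors, in both DESeq2 tests, in edgeR's likelihood ratio test and with all 56 libraries, while limma-voom and scaling by total count each gave 7. The count of higher miRNAs was 6 with no interval term, 3 without 24 h, 5 without 2 w, 6 without 1 m, 4 with no filter and 24 h left out, and 7 to 11 when 1 library was left out. Lower miRNAs numbered 1 with no filter (miR-471-5p), 1 without 2 m (miR-187-5p), 2 without 3 m (miR-138-5p and miR-376a-5p), 2 without 1 y (miR-331-5p and miR-376a-5p), 1 without the 3 sham libraries rich in miR-204-5p, and 0 to 1 when 1 library was left out.

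In the late intervals 1 miRNA was higher in each DESeq2 test, 3 without 1 y, 2 without those 3 sham libraries and 0 to 2 when 1 library was left out. The effect differed between intervals for 3 miRNAs with at least 10 counts in every library, 11 in edgeR's likelihood ratio test, 10 in that of DESeq2, 1 without 24 h, 2 without 1 m, 1 with no filter and 24 h left out, and 4 to 19 when 1 library was left out, the 19 without TBI 2 m replicate 2. Between early and late intervals it differed for 1 without 24 h, with or without the filter. Without 1 m the log2 fold changes of miR-451-5p (0.0133) and miR-30d-5p (−0.0271) changed sign, neither past the threshold. Log2 fold changes were above 0 for 109 of 240 miRNAs with TMM, 94 with total counts and 111 with DESeq2 size factors, and the let-7 list went from 4 of 9 above 0 to 2 of 9 with total counts. The alternatives without the 3 sham libraries, and without the filter and 24 h together, were chosen after seeing the data.

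No paired analysis was possible because each rat was measured once and the replicate numbers tie no TBI rat to a sham rat. For the counts that moved by over 1.5 times, the cause was not tested. Depth limits miR-92a-1-5p and miR-223-5p, which lay near the floor of 3 counts in many libraries.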

Other observations

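Besides the called miRNAs, let-7i-5p, an abundant member of the let-7 family, and miR-190b-5p had effects above 0 at all 7 intervals, with pooled log2 fold changes of 0.14 ± 0.06 and 0.30 ± 0.10 (SE, adjusted p = 0.281 and 0.0897, edgeR). Their lowest interval effects were 0.02 and 0.0015 on the log2 scale. The identical counts of miR-299a-3p and miR-299b-3p in the table mean that the pair adds 1 measurement, not 2, to the Dlk1-Dio3 list.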
